A study of Homo sapiens with 12 samples.

Results

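The mRNA levels of 10 tubulin genes were examined in MOLM-13 and THP-1 cells incubated with DMSO as control or with Jiyuan oridonin A (JOA), a kaurene diterpenoid. The genes were 5 alpha tubulins (TUBA1A, TUBA1B, TUBA1C, TUBA4A and TUBA8) and 5 beta tubulins (TUBB, TUBB2A, TUBB4A, TUBB4B and TUBB6). They were taken by their symbols from a table of 20030 gene rows, and all 10 had 1 row each. The rule used symbols alone, but the genes were picked with earlier results of these data known, and TUBB4A and TUBA8 are among them because the study named them from these libraries. MOLM-13 and THP-1 are established human acute monocytic leukemia lines with rearrangements of the mixed lineage leukemia gene (MLL), and each is a single line. MOLM-13 carries an internal tandem duplication of FLT3, while FLT3 is wild type in THP-1. The JOA dose was 0.5 μM in MOLM-13 and 2 μM in THP-1, for 48 h in each according to the labels and methods (a figure legend of the study gives a longer incubation), so line and dose cannot be told apart in any comparison of the responses. Each of the 4 groups held 3 libraries. The study states that its experiments were repeated, and the legend of its mRNA-seq figure mentions 2 independent experiments. No source used here ties these libraries to separate cultures. The p-values therefore measure the spread between these libraries, which may be technical.

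Alpha and beta tubulins pair as heterodimers, and the heterodimers polymerise into microtubules, which carry organelles and phagosomes through the cell and form the mitotic spindle. Human cells have several genes for each partner, and their products differ mostly in the acidic tail at the end of the protein, the part that enzymes modify after synthesis. TUBA1B and TUBA1C are the common alpha isotypes of dividing cells, and TUBB and TUBB4B the common beta isotypes. TUBA1A, TUBB2A and TUBB4A are best known from the nervous system. Cells also adjust tubulin mRNA to the pool of free heterodimers, since TTC5 recognises the first residues of a new tubulin chain on the ribosome and the mRNA is then degraded.

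The 5 alpha genes are close in sequence. In their aligned coding bases, read from GENCODE release 29 transcripts on GRCh38, TUBA1A and TUBA1B were identical in 97.2%. TUBA1C matched TUBA1B in 96.8%, TUBA4A in 85.7% and TUBA8 in 81.2%, so TUBA4A and TUBA8 are the members that stand apart from the 3 TUBA1 genes.

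Among the beta genes, TUBB4A was one of the lowest in these cells and TUBB and TUBB4B were the most abundant. The bases that tell TUBB4A from the abundant genes therefore bear on every TUBB4A value. Coding bases 301 to 360 are shown in the coding direction, from the same GENCODE transcripts on GRCh38, with capitals where a gene differs from TUBB. This stretch lies in exon 4 of each, at chr6:30723363-30723422 for TUBB, chr6:3154841-3154900 for TUBB2A, chr19:6496139-6496198 for TUBB4A, chr9:137242519-137242578 for TUBB4B and chr18:12325090-12325149 for TUBB6. TUBB2A and TUBB4A are on the minus strand, and the others on the plus strand.
TUBB: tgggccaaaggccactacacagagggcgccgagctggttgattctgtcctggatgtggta
TUBB2A: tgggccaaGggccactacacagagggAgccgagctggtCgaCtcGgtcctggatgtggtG
TUBB4A: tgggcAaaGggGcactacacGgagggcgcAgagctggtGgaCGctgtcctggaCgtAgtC
TUBB4B: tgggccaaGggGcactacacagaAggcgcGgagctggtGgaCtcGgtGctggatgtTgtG
TUBB6: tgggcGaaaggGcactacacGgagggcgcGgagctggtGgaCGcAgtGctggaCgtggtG
TUBB4A differed from TUBB at 11 of these 60 bases and TUBB4B at 10. The capitals do not mark where TUBB4A and TUBB4B differ from each other. Over the aligned coding bases, TUBB4A matched TUBB4B in 87.3% and TUBB2A in 90.1%. No window of 150 bases, the read length, was shared by TUBB4A, TUBB4B, TUBB6 or TUBA4A with another annotated gene. Such windows made up 19.1% of the TUBA1B transcript (shared with TUBA1A and TUBA1C), 6.91% of TUBA1A, 6.77% of TUBA1C and 2.50% of TUBB. They made up 49.4% of TUBB2A, mostly shared with TUBB2B, and 64.3% of TUBA8, all shared with PEX26. The values of TUBA8, TUBB2A and the 3 TUBA1 genes are therefore uncertain as far as the counting could split or share reads. Shorter matches reached the other members too. With windows of 50 bases, shared ones made up 5.99% of TUBB4A, 9.89% of TUBB4B, 5.25% of TUBA4A, 0.993% of TUBB6 and 18.2% of TUBB. For TUBB4A they were mostly shared with TUBB2A and TUBB2B, and some with TUBB4B. What such reads add to the low TUBB4A values was not tested.

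The values are FPKM, in which the fragments of a gene are scaled to its exon length and to the mapped fragments of the library, so levels can be compared between genes per length. Libraries summed to 291127 to 325023 FPKM. Total depth is unknown. All 13 monocytic leukemia markers stood above 1 FPKM in every group, with summed levels of 2707 to 4430 FPKM in MOLM-13 and 2050 to 2653 FPKM in THP-1. Markers of other cell types were low. The summed epithelial list reached 7.93 to 10.2 FPKM in MOLM-13 and 0.649 to 4.99 FPKM in THP-1, the T cell list 3.79 FPKM in MOLM-13, the neuron list 2.79 FPKM and the megakaryocyte list 2.00 FPKM in THP-1, while the erythroid, B cell and fibroblast lists stayed at or below 1.71 FPKM. In MOLM-13, 4 of 5 erythroid and 2 of 4 T cell markers were at 0 in all libraries of a group, and in THP-1 it was 3 of each.

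Tubulin mRNA was abundant in both lines and came from a few genes. The 10 members made up 0.515% to 0.905% of all FPKM. TUBA1B was the highest alpha member and TUBB the highest beta member in every library. TUBA1B took 77.3% to 78.8% of the summed alpha FPKM in MOLM-13 and 84.5% to 85.9% in THP-1. TUBB took 66.9% to 72.7% of the summed beta FPKM in MOLM-13 and 58.1% to 60.8% in THP-1. TUBB4B supplied most of the remainder, 22.9% to 28.3% in MOLM-13 and 31.1% to 33.5% in THP-1. TUBB2A and TUBB4A were low in both lines, with TUBB4A at 0.0637% to 0.285% of the TUBB4B level, and TUBA8 was low in THP-1 (0.242 to 0.655 FPKM) and somewhat higher in MOLM-13 (1.41 to 2.31 FPKM). The other 10 alpha and beta tubulin rows of the table together reached only 0.957 to 1.59 FPKM per library, most of it TUBB3. The summed alpha FPKM was 889 to 1110 in MOLM-13 and 1575 to 1798 in THP-1, while the summed beta FPKM overlapped, at 736 to 967 and 811 to 855. The alpha to beta ratio was therefore 1.15 to 1.32 in MOLM-13 and 1.92 to 2.11 in THP-1. For the same reason as above, no test was made on these sums.

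**Figure D1:**
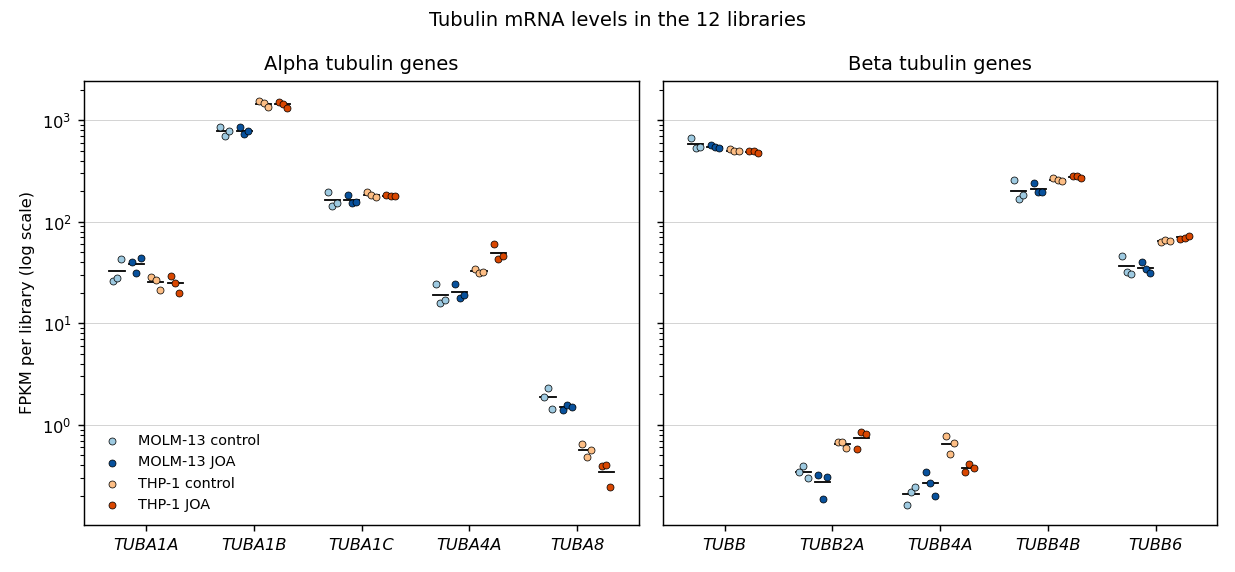
FPKM of each tubulin gene in each library on a log scale, with 1 point per library, 3 per group, and a black bar at the group mean. TUBA1B, TUBB, TUBB4B and TUBA1C lie at the top in all 12 libraries, while TUBB2A and TUBB4A lie below 1 FPKM, and the THP-1 groups of TUBA1B, TUBA4A and TUBB6 lie above the MOLM-13 groups.

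**Figure D2:**
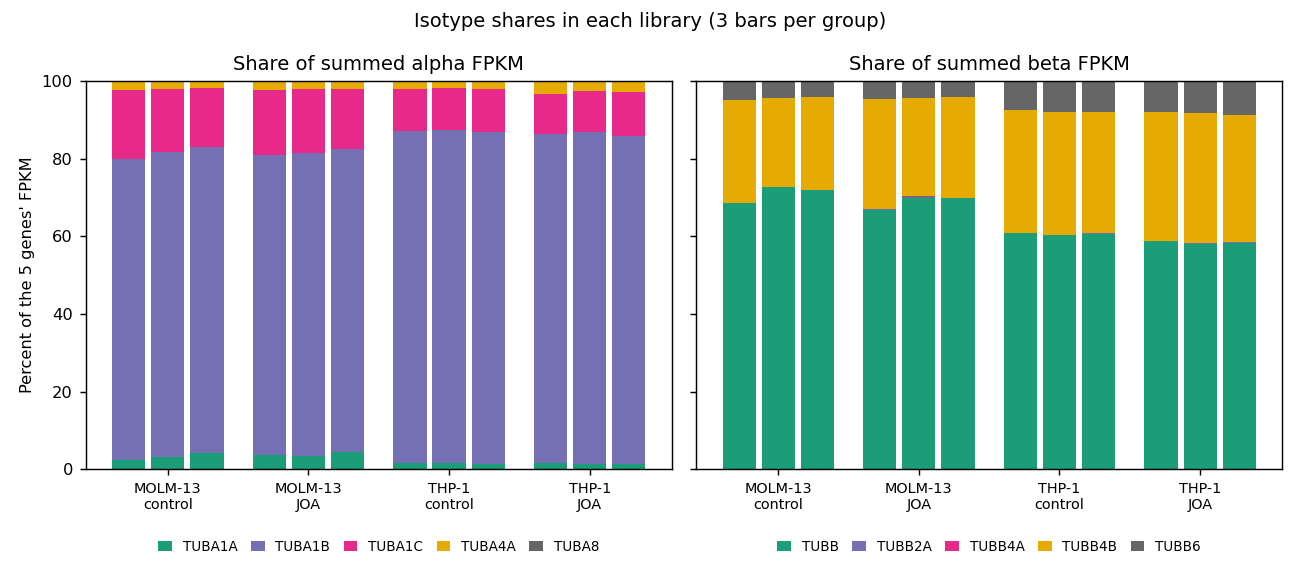
Percent of the summed FPKM of the 5 alpha (left) and 5 beta (right) members taken by each gene, with 1 bar per library and 3 per group. TUBA1B takes a larger share in THP-1 than in MOLM-13 and TUBB a smaller one, and TUBA8, TUBB2A and TUBB4A are too small to see.

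Tubulin genes passed the test only between the untreated lines, not between control and JOA. In the control libraries, 5 members were higher in THP-1 (TUBA1B, TUBA4A, TUBB2A, TUBB4A and TUBB6) and 1 was lower (TUBA8), at an adjusted p under 0.05 (limma, Benjamini-Hochberg over 12635 genes) with a log2 fold change of 0.58 or more in size. Of all genes tested, 25% were called higher in THP-1 and 19% lower, so calls were common between the lines. The control groups did not overlap for 5 members higher in THP-1 and 2 lower (TUBA8 and TUBB), against 40.7% and 34.1% of all genes. Fold changes are given on the log2(FPKM + 0.1) scale, which understates those of low genes, and in bulk RNA fewer cells of a type and less RNA per cell cannot be told apart.

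TUBA1B was at 861, 699 and 788 FPKM in MOLM-13 control replicates 1 to 3 and at 1538, 1472 and 1351 FPKM in the THP-1 controls. Every THP-1 library was above every MOLM-13 library, by a log2 fold change of 0.90 (SE 0.10, adjusted p = 7.34e-05 by limma). TUBA4A was at 24.6, 16.0 and 17.0 FPKM in MOLM-13 controls and at 34.4, 31.6 and 32.4 FPKM in THP-1 controls, a difference of 0.80 (SE 0.15, adjusted p = 0.00141, limma). TUBA8 went the other way. Its MOLM-13 control values were 1.87, 2.31 and 1.42 FPKM and its THP-1 control values 0.655, 0.482 and 0.565 FPKM, a log2 fold change of -1.54 (SE 0.19, adjusted p = 0.000127, limma). PEX26 is a peroxisome gene whose annotated exons cover 1344 of the 1347 coding bases of TUBA8 on the same strand. It was nearly level between the lines, at 12.1 ± 0.454 FPKM in THP-1 and 12.9 ± 0.311 in MOLM-13 controls (SD, n = 3). Every THP-1 control value of PEX26 was nonetheless below every MOLM-13 control value. TUBA8 was 4.68% ± 0.723 of the PEX26 level in THP-1 and 14.5% ± 3.81 in MOLM-13. TUBA1C lay at 197, 143 and 152 FPKM in MOLM-13 controls and 196, 183 and 174 in THP-1 controls, and TUBA1A at 26.3, 28.1 and 42.7 against 28.8, 27.0 and 21.3. Those 2 genes overlapped between the lines and were not called, with log2 fold changes of 0.18 (adjusted p = 0.195, limma) and -0.31 (adjusted p = 0.169).

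Of the beta members, TUBB was at 664, 535 and 546 FPKM in MOLM-13 controls and at 519.6, 494 and 492 FPKM in THP-1 controls. The groups did not overlap, yet the log2 fold change of -0.21 (SE 0.09, adjusted p = 0.0801, limma) did not pass. TUBB4B, at 257, 168 and 182 against 271, 258 and 252 FPKM, had an adjusted p of 0.0385 by limma but a log2 fold change of only 0.39, under the fold threshold. TUBB6, a class V beta tubulin, was called: its MOLM-13 control values of 46.4, 31.8 and 30.7 FPKM all lay under the THP-1 values of 63.6, 66.4 and 65.4 FPKM, with a log2 fold change of 0.87 (SE 0.14, adjusted p = 0.000733, limma). TUBB2A and TUBB4A were called at very low levels. TUBB2A was at 0.347, 0.396 and 0.298 FPKM in MOLM-13 controls and at 0.680, 0.673 and 0.597 in THP-1 controls (0.75, SE 0.15, adjusted p = 0.00192, limma). TUBB4A was at 0.164, 0.221 and 0.243 against 0.771, 0.514 and 0.667 FPKM (1.27, SE 0.19, adjusted p = 0.000375, limma), the largest log2 fold change of the members that were higher in THP-1. With a pseudocount of 1 the calls of TUBB2A and TUBB4A were lost, at log2 fold changes of 0.29 and 0.45.

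**Figure D3:**
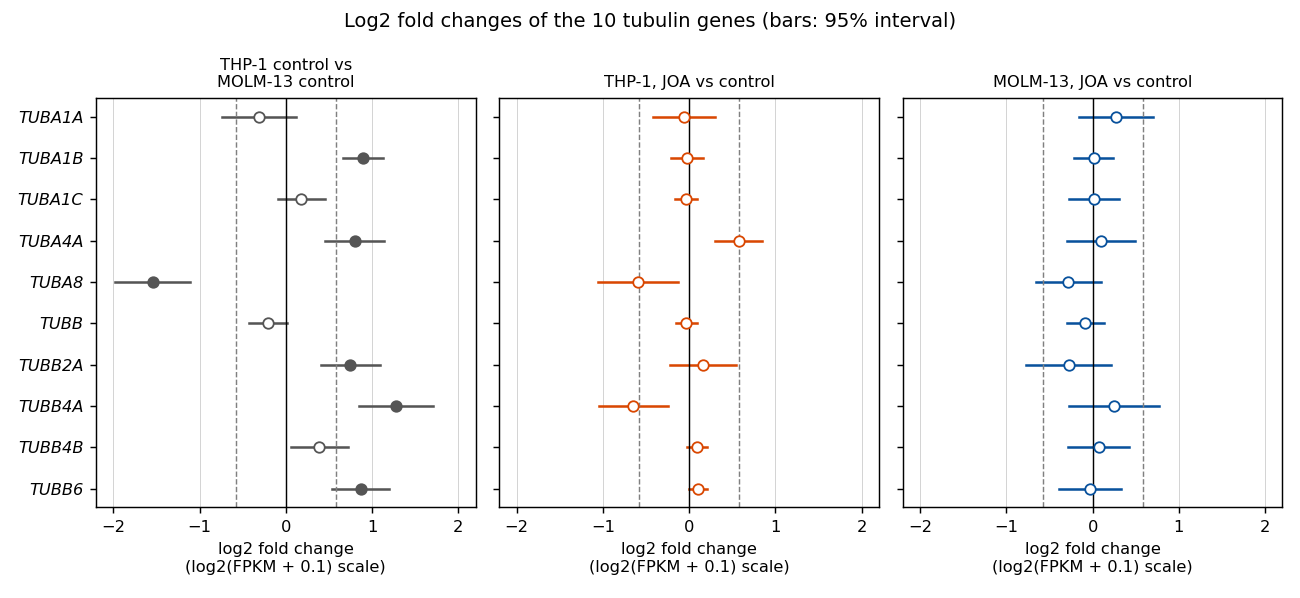
Log2 fold changes of the 10 genes on the log2(FPKM + 0.1) scale, with 95% intervals (not adjusted for the number of genes) as bars, filled points for called genes, and dashed lines at -0.58 and 0.58. The 6 filled points are all in the comparison of the untreated lines, and in THP-1 only TUBA4A, TUBB4A and TUBA8 have JOA intervals that leave out 0.

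In THP-1 cells, JOA left the abundant tubulin mRNAs near their control levels. No member was called (0 of 10), against 17 of 12712 genes (0.134%), and 2146 genes had an unadjusted p under 0.05 by limma. A fit blocked on the replicate number called 161 genes (1.27%) and again 0 members. The 3 JOA values lay above the 3 control values for 2 members (TUBA4A and TUBB6), against 14.6% of genes, and below them for 2 (TUBB4A and TUBA8), against 8.81%. The 95% intervals of the log2 fold change were -0.21 to 0.16 for TUBA1B, -0.16 to 0.09 for TUBA1C, -0.16 to 0.08 for TUBB and -0.03 to 0.21 for TUBB4B. Changes beyond 0.58 lay outside all of these intervals.

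TUBA4A was at 34.4, 31.6 and 32.4 FPKM in the THP-1 control libraries 1 to 3 and at 59.7, 42.5 and 45.6 FPKM in the JOA libraries. All JOA values were above all control values, and replicate 1 stood highest. The mean went from 32.8 ± 1.42 to 49.3 ± 9.18 FPKM (SD, n = 3), which is 0.57 on the log2 scale (SE 0.12), and limma gave an adjusted p of 0.0818. This fold is just under the threshold of 0.58. Under the replicate block the adjusted p was 0.00886, so that TUBA4A passed on the adjusted p alone, together with 682 genes (5.37%) that were higher with JOA by the same rule. Without JOA replicate 1 the log2 fold change was 0.43 (adjusted p = 0.139, limma). STK16 is a kinase gene on the opposite strand whose exons overlap 627 bases of the TUBA4A transcript and 0 of its coding bases. It was at 5.25 ± 0.435 FPKM in control and 6.05 ± 0.525 in JOA libraries (log2 fold change 0.20, adjusted p = 0.311, limma). Its JOA values too were all above its control values, and its part in the TUBA4A value was not tested.

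TUBB4A was at 0.771, 0.514 and 0.667 FPKM in THP-1 controls and at 0.341, 0.412 and 0.373 FPKM with JOA. Each JOA library was below each control library, and the control values were the more spread. The mean went from 0.650 ± 0.129 to 0.375 ± 0.0358 FPKM (SD, n = 3), and the log2 fold change of -0.65 (SE 0.17) did not pass, with adjusted p values from limma of 0.128 and, under the replicate block, 0.0688. If the smallest step in the TUBB1 values, 0.00866 to 0.00987 FPKM, is worth 1 fragment, and GENCODE transcript lengths apply, these levels correspond to about 38 to 57 fragments in control and 25 to 31 in JOA libraries. TUBA8 was at 0.655, 0.482 and 0.565 FPKM in controls and 0.396, 0.401 and 0.242 FPKM with JOA. Its groups also did not overlap, with JOA the lower, and the log2 fold change of -0.59 (SE 0.20) did not pass either, with 0.199 and 0.0950 in the same order. By the same assumption its values correspond to about 28 to 39 fragments in control and 14 to 24 in JOA libraries. PEX26 was at 12.1 ± 0.454 FPKM in control and 11.1 ± 0.385 FPKM in JOA libraries, a log2 fold change of -0.13 (adjusted p = 0.294, limma). Its groups did not overlap either, with JOA the lower. TUBA8 was 4.68% ± 0.723 of PEX26 in control and 3.11% ± 0.721 in JOA libraries (SD, n = 3), and how the counting divided their shared exon reads was not tested. TUBB4A and TUBA8 were named by the study from these same libraries, so their direction here is no independent evidence. The smallest p of an exact permutation test (two-sided) for 3 libraries in each group is 0.1. Every gene whose groups do not overlap takes that value, here TUBA4A, TUBB4A, TUBA8 and TUBB6. It therefore adds nothing to the lack of overlap.

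**Figure D4:**
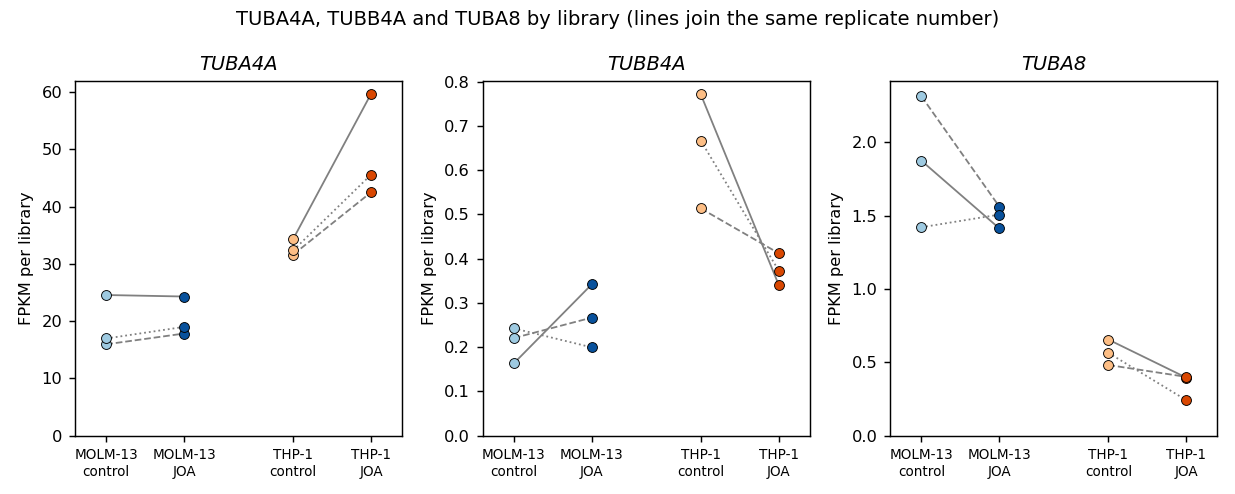
FPKM of TUBA4A, TUBB4A and TUBA8 in each library, with axes from 0 and lines joining control and JOA libraries of the same replicate number. In THP-1 all 3 TUBA4A lines go up and all TUBB4A and TUBA8 lines go down, while in MOLM-13 the lines of each gene go both ways.

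TUBB6 was the other member without overlap in THP-1, at 63.6, 66.4 and 65.4 FPKM in control and 67.8, 69.7 and 72.6 FPKM in JOA libraries. The shift was small, with a log2 fold change of 0.10 (SE 0.05, adjusted p = 0.306, limma). TUBB4B was at 271, 258 and 252 FPKM against 281, 283 and 268 FPKM, and TUBB at 519.6, 494 and 492 against 498, 492 and 479.6 FPKM. The groups of both genes overlapped, although TUBB4B was higher and TUBB lower with JOA in 3 of 3 pairs of the same number. TUBB6 was higher in 3 of 3 pairs too, and TUBA1B, whose log2 fold change turned sign after rescaling to equal sums, was lower in 3 of 3. None of these 4 genes passed limma's test under the replicate block. How many of all genes agree in 3 of 3 pairs was not counted in either line. As shares of the beta sum within each library, TUBB and TUBB4B did separate, while the TUBB6 shares overlapped. TUBB took 60.3% to 60.8% in control and 58.1% to 58.7% in JOA libraries. TUBB4B took 31.1% to 31.6% in control and 32.6% to 33.5% in JOA libraries. TUBB and TUBB4B supplied most of the same sum, so their shares are not independent of each other. The TUBA4A share of the alpha sum was 1.85% to 2.05% in control and 2.51% to 3.34% in JOA libraries. The shares of TUBA1B (85.5% to 85.9% in control, 84.5% to 85.4% with JOA), TUBA8 and TUBB4A also did not overlap, with JOA the lower. Those of TUBA1A, TUBA1C and TUBB2A overlapped. All these shares are given without a test. TUBA1B was at 1515, 1447 and 1331 FPKM with JOA, TUBA1C at 182, 179 and 178 FPKM and TUBA1A at 29.5, 25.2 and 19.9 FPKM, each overlapping the control values above. TUBB2A, at 0.577, 0.846 and 0.814 FPKM with JOA, overlapped too (log2 fold change 0.16, adjusted p = 0.67, limma).

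In MOLM-13 cells, no member was called (0 of 10) and neither was any gene of 11693 (0%), by limma with or without the replicate block, while 481 genes had an unadjusted p under 0.05. No member had JOA values wholly above or below the control values, which held for 5.1% and 4.55% of genes. TUBA1A came nearest to a shift in 1 direction, at 26.3, 28.1 and 42.7 FPKM in control and 40.4, 31.6 and 43.7 FPKM in JOA libraries 1 to 3. It was higher with JOA in 3 of 3 pairs of the same number, though the groups overlapped. The log2 fold change was 0.27 (SE 0.19, adjusted p = 0.9997, limma). Under the replicate block the SE was 0.10 and limma's adjusted p 0.402, so TUBA1A did not pass there either. TUBA4A was at 24.3, 17.8 and 19.0 FPKM with JOA, TUBB4A at 0.342, 0.267 and 0.200 FPKM and TUBA8 at 1.41, 1.56 and 1.51 FPKM. Of these, TUBA4A and TUBB4A were higher than the same-numbered control in 2 of 3 pairs and TUBA8 in 1 of 3. The log2 fold changes were 0.10 (95% interval -0.29 to 0.50) for TUBA4A, 0.25 (-0.27 to 0.77) for TUBB4A and -0.28 (-0.66 to 0.09) for TUBA8.

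For the abundant members in MOLM-13, the JOA values were 856, 724 and 781 FPKM for TUBA1B, 185, 153 and 155 for TUBA1C, 566, 539.8 and 529 for TUBB, 239.6, 194 and 195 for TUBB4B and 39.8, 34.1 and 31.6 for TUBB6. TUBB2A was at 0.323, 0.187 and 0.308 FPKM. Log2 fold changes of these 6 genes lay between -0.28 (TUBB2A) and 0.07 (TUBB4B), with 95% intervals of -0.22 to 0.24 for TUBA1B, -0.27 to 0.31 for TUBA1C, -0.30 to 0.13 for TUBB, -0.29 to 0.43 for TUBB4B, -0.38 to 0.33 for TUBB6 and -0.77 to 0.22 for TUBB2A. Replicate 1 was the highest library of both groups for 6 members in MOLM-13 (TUBA1B, TUBA1C, TUBA4A, TUBB, TUBB4B and TUBB6), as it was for 26.8% of genes, and for 5 members in THP-1 (TUBA1A, TUBA1B, TUBA1C, TUBA4A and TUBB), against 19.5% of genes. This count was made after the values were seen. The summed FPKM of 15 proliferation genes was 1077, 940.5 and 934 in MOLM-13 control replicates 1 to 3. In the MOLM-13 JOA libraries it was 911.4, 895.2 and 912.5, so replicate 1 was not the highest there. The part of this sum in the tubulin values was not tested.

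The response to JOA was also compared between the lines, over all 12 libraries. No member and 0 of 12626 genes (0%) passed an adjusted p of 0.05 by limma, 914 genes had an unadjusted p under 0.05, and 6 genes (0.0475%), but 0 members, passed under the replicate block. The largest difference among the members, THP-1 minus MOLM-13, was that of TUBB4A at -0.90 on the log2 scale (SE 0.26, adjusted p = 0.477 and 0.215 under the block, limma). For TUBA4A it was 0.47 (SE 0.24, adjusted p = 0.725 and 0.0987 under the block, limma). A difference between the lines in the response of TUBB4A or TUBA4A was thus not shown, and dose differs with the line.

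None of the tubulin partner genes was called with JOA either. Over 9 lists of other microtubule genes, 89 genes were tested in THP-1 and 81 in MOLM-13, and limma called 0 in each line, with 11 and 3 at an unadjusted p under 0.05. Their median log2 fold change was 0.02 in THP-1, the same as the median of all genes at that rounding, and -0.02 in MOLM-13, where the median of all genes was 0.01. In THP-1, 13.5% of these genes were wholly higher with JOA and 6.74% wholly lower, near the 14.6% and 8.81% of all genes. TTC5, which reads the nascent tubulin chain for mRNA decay, went from 8.25 ± 0.605 to 9.23 ± 0.0779 FPKM, and CNOT1, the scaffold of the deadenylase complex, from 49.5 ± 1.31 to 44.9 ± 1.38 FPKM (SD, n = 3), and neither passed (adjusted p = 0.27 and 0.185, limma). TUBG1, the gamma tubulin that nucleates microtubules, had a log2 fold change of 0.16 and PCNT, a centrosome scaffold, one of -0.17. Among folding genes the values were -0.06 for the chaperonin subunit CCT2, 0.17 for PFDN1 and -0.16 for PFDN4. Larger values belonged to low genes of the lists for modification, stabilising and severing, at 0.58 for KIAA0895, 0.34 for TTLL3, -0.45 for MAP1A, 0.27 for EML1 and 0.43 for KATNAL1, a katanin-like severing gene. In MOLM-13 the named genes were TUBG2 at 0.31, TUBGCP3 at -0.13, TTLL11 at 0.29, AGBL5 at -0.19 and CLASP1 at 0.06. The proliferation list of 15 genes had a median of -0.14 in MOLM-13, with all 15 below 0 and 8 wholly lower without overlap, where 4.55% of all genes were, and of 0.00 in THP-1, with 7 above 0 and 8 below. RRM2, a subunit of ribonucleotide reductase, was at -0.20 in MOLM-13 and 0.19 in THP-1. None of the proliferation genes was called by limma. Under the replicate block, RRM2 and KATNAL1 passed in THP-1 on limma's adjusted p alone (0.0305 and 0.04999). By that rule 5.37% of all genes were higher with JOA.

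**Figure D5:**
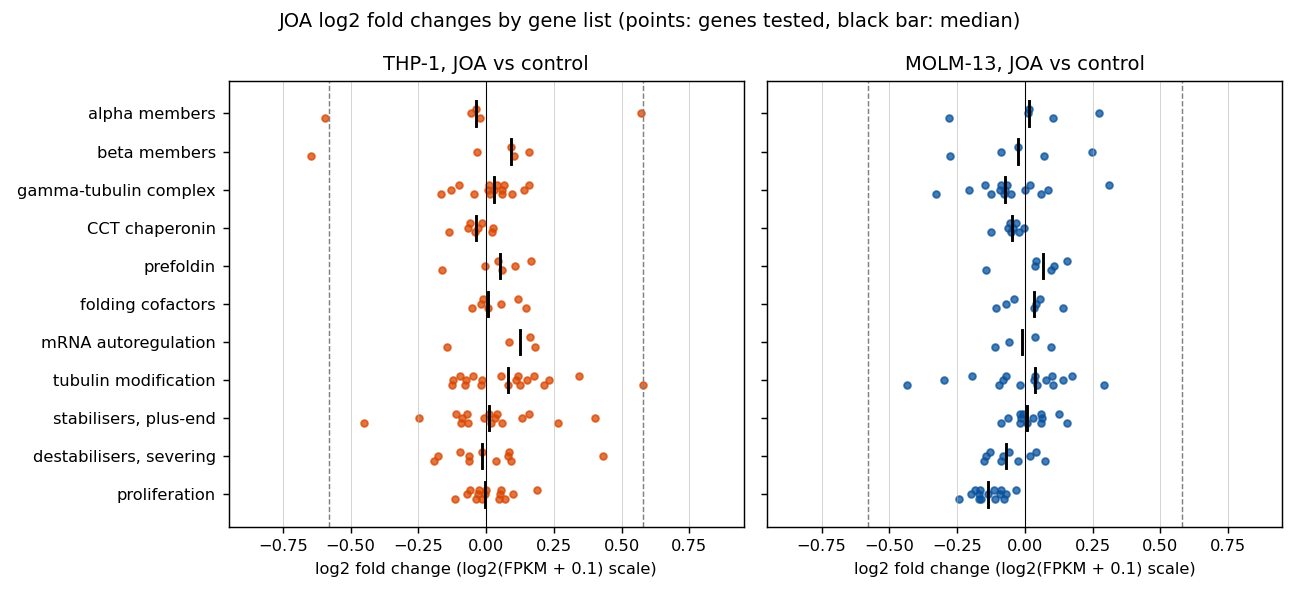
Log2 fold changes with JOA by gene list in THP-1 and MOLM-13, with 1 point per gene tested, a black bar at each list's median and dashed lines at -0.58 and 0.58. Cell type marker lists and the list of other alpha and beta tubulins are not drawn. Among the lists drawn, TUBA8 and TUBB4A are the points furthest to the left in THP-1, and the MOLM-13 proliferation points all lie below 0.

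Between the untreated lines, 24 of 85 tested genes of these lists were called (28.2%), 18 higher in THP-1 and 6 lower, where 25% of all genes were called higher and 19% lower. SVBP, the partner of the vasohibins that remove the tail tyrosine, was at 15.8 ± 1.24 FPKM in THP-1 and 4.58 ± 0.303 in MOLM-13 controls, a log2 fold change of 1.77 (adjusted p = 5.97e-07, limma). ATAT1, the alpha tubulin acetyltransferase, was lower in THP-1 (-0.90), and TTLL7, a polyglutamylase, was higher (1.61) at a very low level. MAP1B (5.55), MAP1A (3.12) and MAP7 (2.05) led the stabilisers, and STMN3 (2.19), STMN1 (0.77) and KIF2C (0.72) the destabilisers. TUBG1 (0.74), MZT2B (0.77) and MZT2A (0.71) of the gamma-tubulin list, PFDN2 (0.91) and TBCE (0.65) were higher in THP-1, and CCT8 (-0.60) and ARL2 (-0.71) were lower. All of these passed limma's test. No gene of the 4 for mRNA autoregulation was called.

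Some genes followed single members across the 12 libraries after each line's mean was taken off log2(FPKM + 0.1). Out of 11355 genes, PINK1, WDR4 and ERP29 followed TUBA1B most closely (Pearson's r 0.948, 0.944 and 0.942), and HTATSF1, ALYREF and UBE3C followed TUBB (0.981, 0.956 and 0.948). TUBB4A had S100A4 (0.940), SARDH and C11orf95 as its nearest, and TUBA8 had RANBP2 (0.901), POLR3B and TTC3. Among the members themselves, TUBA1C and TUBB4B had an r of 0.927 and TUBA1C and TUBB one of 0.858. These values are descriptions of libraries that share depth, replicate number and treatment, and the nearest of so many genes are high by selection.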

How the data were processed

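The mRNA-seq libraries were made from total RNA with a stranded mRNA kit and read as 150 bp pairs. The authors deposited 1 table of FPKM values, with 1 column for each of the 12 libraries and 20030 rows, 3488 of them at 0 throughout. The submitters' processing notes name Trimmomatic, HISAT2, Cufflinks, HTSeq and the build hg38. The annotation, and whether counting used strand, are not given in the sources used here. Libraries were grouped by their labels, and 0 columns belonged to other series. The study used DESeq, which needs counts and was not run.

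FPKM were used as deposited. Genes whose mean over the libraries of a comparison reached 0.1 FPKM were kept, and log2(FPKM + 0.1) was fitted by limma 3.58.1 in R 4.3.3 (lmFit, eBayes with a mean-variance trend), with Benjamini-Hochberg adjustment over all genes. All 10 tubulin genes passed the filter in every comparison. Calls needed an adjusted p under 0.05 with a log2 fold change of 0.58 or more in size, or the adjusted p alone for the interaction. The fits were tested on simulated data. Replicate numbers come from the labels. Deviations of same-numbered control and JOA libraries correlated at 0.139 to 0.319 in THP-1 and 0.264 to 0.398 in MOLM-13, so the numbers were taken to pair them, and each fit was repeated with the number as a block.

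The tubulin genes and the gene lists were chosen with earlier results of these data known. Named besides the 10 tubulins were called genes of each list, or else the 2 with the largest change among those without overlap, for the line comparison the 3 called genes of each list with the largest change, and the 3 genes most correlated with TUBA1B, TUBB, TUBB4A and TUBA8. Alternatives covered the pseudocount, the filter, 2 rescalings, the replicate block, the eBayes trend left off, the adjusted p alone, a single fit of all libraries, the shares over all tubulin rows, and leaving out each library. Sequences, lengths and shared windows came from GENCODE release 29 transcripts on GRCh38, with Python 3.11.15 and Biopython 1.88. Some alpha tubulin sequence is not reported here.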

Additional observations from a re-analysis of the deposited data

How the results depend on the processing

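The count of genes called with JOA in THP-1 was the least stable value. It was 17, and became 8 with a pseudocount of 1, 0 with any FPKM above 0, 1 without a trend, 56 in one fit on all 12 libraries, 38 on the adjusted p alone and 161 under the replicate block. Leaving out any 1 library, control or JOA, gave 0 to 1. The block with the adjusted p alone, added after the data were seen, gave 1024 genes and 1 tubulin gene, TUBA4A. In all other alternatives 0 tubulin genes were called with JOA in either line or in the interaction. In MOLM-13, 1 gene was called with any FPKM above 0 and 1 in one fit on all libraries. The interaction called 1 gene with a pseudocount of 1, 3 with any FPKM above 0, 1 after rescaling by the median ratio and 6 under the block. Between the untreated lines the adjusted p alone gave 9000 genes in place of 5559, and 7 tubulin genes in place of 6, with TUBB4B added. There the numbers pair no samples, with same-number correlations of 0.0698 to 0.131, and the block gave 6 tubulin genes. It changed no other call of a tubulin gene. With a mean FPKM of at least 1, TUBB2A and TUBB4A were not tested in any comparison, nor was TUBA8 in THP-1 with JOA. All 160 alternative isotype shares moved by less than 1 SD. Leaving out 1 library cannot move a group's mean share by 1 SD, so this outcome was largely fixed in advance and does not show stability. Small log2 fold changes turned sign. Rescaling to equal sums gave 0.0021 for TUBA1B in THP-1, -0.0018 in MOLM-13 and 0.0040 in the interaction, and the median ratio gave -0.0064 for TUBB4B in the interaction. Leaving out 1 library gave, in THP-1, -0.19 to 0.0945 for TUBA1A, -0.074 to 0.029 for TUBA1B and -0.077 to 0.0091 for TUBA1C. In MOLM-13 it gave -0.069 to 0.081 for TUBA1B, -0.073 to 0.15 for TUBA1C, -0.0305 to 0.29 for TUBA4A, -0.14 to 0.011 for TUBB, -0.052 to 0.25 for TUBB4B and -0.13 to 0.16 for TUBB6. In the interaction it gave -0.10 to 0.047 for TUBA1B, -0.19 to 0.037 for TUBA1C, -0.046 to 0.11 for TUBB, -0.16 to 0.14 for TUBB4B and -0.059 to 0.24 for TUBB6. Why these values moved was not tested. FPKM hold no counts, so the counting error of TUBA8, TUBB2A and TUBB4A is not in the intervals other than through the spread between libraries.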
